A study of Rattus norvegicus with 5 samples.

Results

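The Rab GTPases, SNARE proteins and their partners that move and fuse secretory vesicles were followed in rat parotid glands after isoproterenol, an agonist of beta-adrenergic receptors. Probes were taken by gene symbol: numbered Rab genes, the Vamp, Stx, Stxbp, Snap, Syt, Sytl, Exoc and Scamp families, Napa and Nsf. The symbols matched 115 probes of 111 genes, and 74 of these probes (73 genes) had a detection p-value under 0.01 on at least 1 array. They are 74 of the 10793 probes tested in all, or 73 of 7627 tested genes with a symbol. A detection p-value says how often a negative control on the array is as bright as the probe or brighter. Glands came from male Sprague-Dawley rats 2 to 3 months old. The isoproterenol rats received an intraperitoneal injection and were killed 10, 30 or 60 min later, with 1 rat at each time, and 2 control rats received saline. The labelled dose is 20 mg per g of body weight, a unit that is in doubt, and how long the controls lived after saline is not known here. Total RNA of the whole gland was amplified to biotin-labelled cRNA and hybridised to 1 Illumina array per rat.

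Vesicles are carried, tethered and fused by a shared machinery. Rab GTPases mark each membrane and recruit motors and tethers, the exocyst tethers vesicles to the plasma membrane, and SNAREs on the vesicle (VAMPs) zip together with SNAREs on the target membrane (syntaxins and SNAP proteins). Syntaxin-binding proteins guide this assembly, synaptotagmins couple it to calcium, and NSF with its adaptor alpha-SNAP (Napa) pulls the used complexes apart. Parotid acinar cells store amylase and other saliva proteins in zymogen granules and release them when beta-adrenergic receptors raise cyclic AMP. VAMP2, VAMP8, RAB3D, RAB26 and RAB27B are known from the granules of exocrine acinar cells.

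Between 9095 and 9459 of the 22517 probes were detected per array, and between 64 and 70 of the 74 trafficking and SNARE probes. The gland label was borne out by acinar markers, of which 7 of 7 were detected on every array. Skeletal muscle markers set control 1 and the 30 min rat apart from the other arrays. The summed intensity of the 12 detected muscle markers was 49684 in control 1, 2947 in control 2, 3101 at 10 min, 50489 at 30 min and 6789 at 60 min. Connective tissue and vessel markers were lower at 60 min for 7 of 7 detected genes, with summed intensities of 22089 and 21170 in the controls and 5646, 8475 and 6688 at 10, 30 and 60 min. Adipocyte markers were lower at 60 min for 6 of 6, with sums of 8113 and 7658 in the controls and 4077, 6556 and 2423 at 10, 30 and 60 min. Duct markers were lower at 60 min for 3 of 5, with sums of 3895 and 3190 in the controls and 3011, 1965 and 1712 at 10, 30 and 60 min, and myoepithelial markers for 2 of 4. In whole-gland RNA, fewer cells of a type and less RNA per cell cannot be told apart. Each time rests on 1 rat. Except where the 3 isoproterenol rats form 1 group, the error of a difference comes from the spread of the 2 controls, moderated over all probes. It thus measures how far the lone rat lay from the controls, and the rat and its time cannot be told apart.

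At 60 min, 10 of the 74 trafficking and SNARE probes differed from the controls in limma's moderated test (adjusted p under 0.05 over all 10793 probes), 7 of them higher and 3 lower. Golgi and early endosome genes stood among the higher ones (Rab6b, Rab1a, Stx5, Rab5a and Rab5b), together with Stx17 and Rab3a, and the lower ones were Rab14, Stx4 and Vamp5. Rab3a and Stx17 met the detection rule only through arrays on which they were high, and without them 5 were higher. At an unadjusted p under 0.05 there were 21, beside 42% of all probes. The calls were 13.5% of the trafficking and SNARE probes, against 24.4% of all probes tested. The share called higher was 9.46%, against 13% of all probes tested, and the share called lower 4.05%, against 11.4%. In size, 5 probes differed at least 2-fold from the mean of the controls and lay outside both controls at 60 min, 4 higher (5.41%, against 11.9% of all probes) and 1 lower (1.35%, against 9.06%). Without control 2 this count by size was 10, and without control 1 it was 5. The controls themselves lay at least 2-fold apart for 0 of the 74 probes, beside 2.17% of all probes. The median absolute log2 difference at 60 min was 0.36 over the trafficking and SNARE probes and 0.49 over all probes. Their median log2 difference was 0.02, beside -0.08 for all probes, and the controls differed from each other by a median of 0.09 (control 2 minus control 1). The 10 calls depend on the filter for dim probes: when all 22517 probes were tested, none passed, and their adjusted p ran between 0.0686 for Rab14 and 0.100 for Rab5a.

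**Figure D1:**
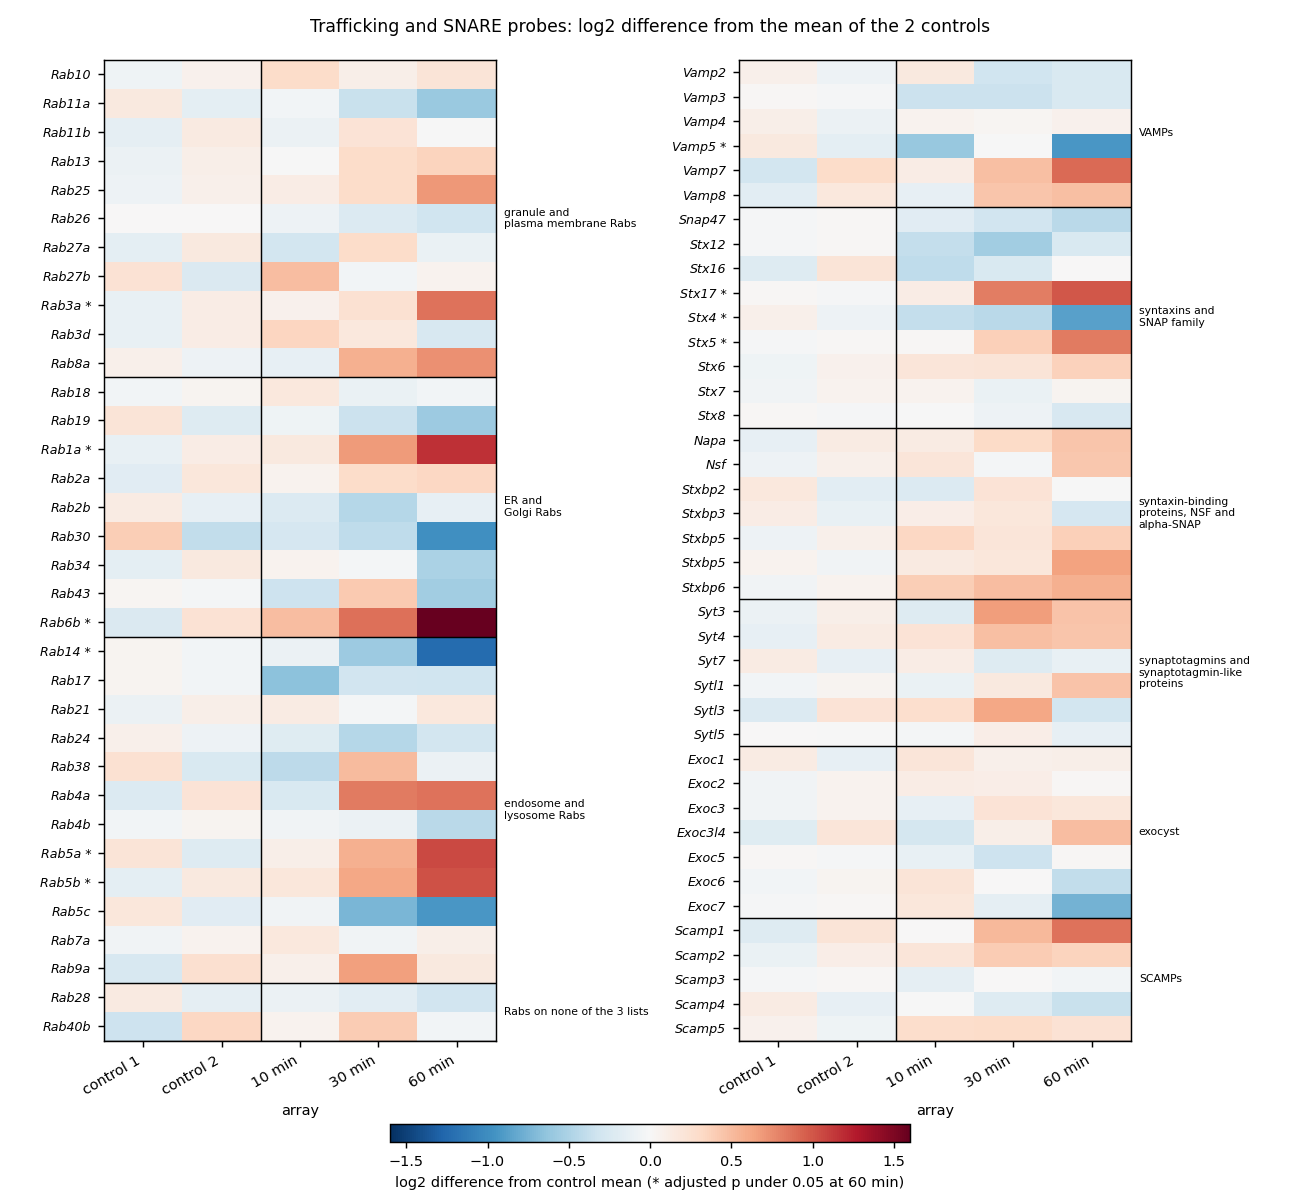
Heat map of the 74 trafficking and SNARE probes (rows, grouped by role) on the 5 arrays (columns), coloured by the log2 difference from the mean of the 2 controls on a scale that ends at 1.6 in both directions; an asterisk marks the 10 probes past the limma threshold at 60 min. The strongest colours lie in the 60 min column, in rows such as Rab6b (1.61) and Rab14 (-1.23).

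**Figure D2:**
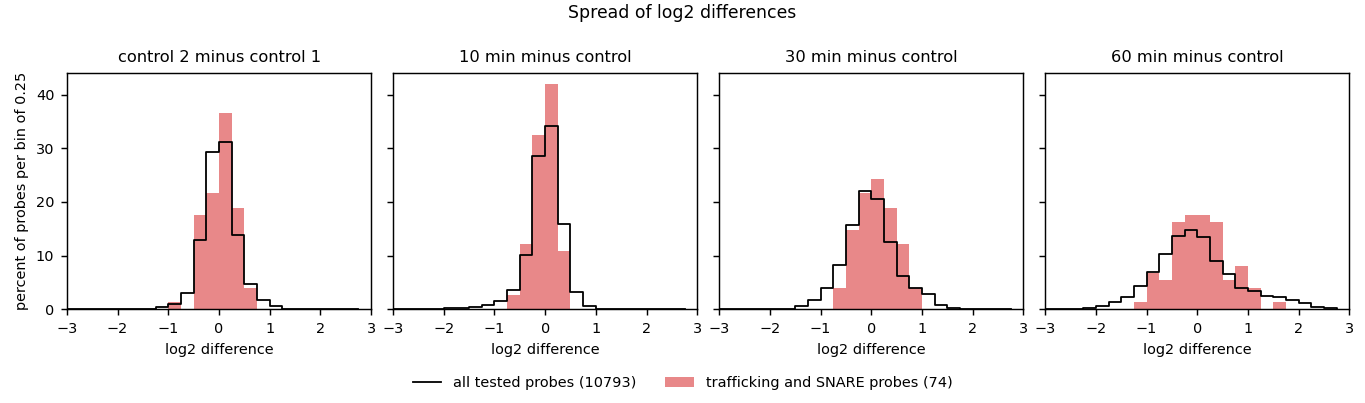
Percent of probes per bin of log2 difference, drawn between -3 and 3, for control 2 minus control 1 and for 10, 30 and 60 min minus the control mean; bars are the 74 trafficking and SNARE probes, and the line is all 10793 tested probes. At 60 min the line spreads wider than the bars, with a median absolute difference of 0.36 for the bars and 0.49 for the line.

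Genes of the route between the endoplasmic reticulum and the Golgi were among those higher at 60 min. Of the 9 probes for Rabs of this route, 2 rose and 0 fell, beside 13% higher and 11.4% lower among all probes, and the other 7 did not pass. The median difference of the 9 was -0.13, beside -0.08 for all probes. Rab6b (Entrez Gene 363123), a RAB6 isoform of Golgi traffic, had log2 values of 6.23 and 6.68 in the controls, 6.95 at 10 min, 7.33 at 30 min and 8.06 at 60 min. All 3 isoproterenol rats lay above both controls, and the later the rat was taken, the higher its value. At 60 min Rab6b was 3.04-fold the control mean, a log2 difference of 1.61 ± 0.27 (SE; limma adjusted p = 0.0287). A second Rab6b probe was not detected on any array. Rab1a (81754), which acts in transport from the endoplasmic reticulum to the Golgi, had 9.36 and 9.61 in the controls and 9.64, 10.16 and 10.66 at 10, 30 and 60 min. The 10 min value lay close to the upper control and the 2 later ones stood clear of it, and the 60 min value was 2.25-fold the control mean (1.17 ± 0.23, limma adjusted p = 0.0306). Stx5 (65134), the target SNARE of this step at the Golgi, had 7.88 and 7.92 in the controls and 7.92, 8.29 and 8.74 at 10, 30 and 60 min. It was 1.78-fold the control mean at 60 min (0.83 ± 0.20, limma adjusted p = 0.0449).

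The remaining Rabs of this route spanned log2 differences between -0.98 and 0.33 at 60 min. Rab2a, which acts between the same compartments, had 11.12 at 60 min, against 10.62 and 10.97 in the controls (0.33, limma adjusted p = 0.361). Rab18, a Rab of the endoplasmic reticulum and of lipid droplets, had 10.73 at 60 min, against 10.73 and 10.82 in the controls. The lowest difference, that of the Golgi Rab Rab30, was -0.98, but its controls lay 0.80 apart and it did not pass (limma adjusted p = 0.116). Rab30 and Rab43 were not well above background at 60 min.

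Rabs of endosomes moved in both directions, as did all probes tested (13% higher and 11.4% lower at 60 min). Of 12 probes for endosome and lysosome Rabs, 2 rose, 1 fell and 9 did not pass at 60 min. Rab5a (64633) and Rab5b (288779) are isoforms of RAB5, which drives fusion of early endosomes. Rab5a had 5.83 and 5.43 in the controls and 5.72, 6.20 and 6.68 at 10, 30 and 60 min, so the 10 min rat lay between the controls and the later rats above them. At 60 min it was 2.08-fold the control mean (1.06 ± 0.26, limma adjusted p = 0.0448). Rab5b had 6.85 and 7.17 in the controls and 7.19, 7.63 and 8.03 at 10, 30 and 60 min, and was 2.03-fold the control mean at 60 min (1.02 ± 0.24, limma adjusted p = 0.0411). The third isoform, Rab5c, had 9.74 and 9.39 in the controls and 9.51, 8.83 and 8.63 at 10, 30 and 60 min. Its difference at 60 min was -0.93 (limma adjusted p = 0.0531), just outside the threshold, and it passed under 4 of the 8 alternative settings tested, with adjusted p between 0.0324 and 0.104 over the 8.

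Rab14 (94197), a Rab of traffic between the Golgi and endosomes, fell. Its log2 values were 9.19 and 9.11 in the controls, 9.06 at 10 min, 8.56 at 30 min and 7.92 at 60 min. Every isoproterenol rat lay below both controls, the 10 min rat by the least. The 60 min level was 2.34-fold lower than the control mean (-1.23 ± 0.21, limma adjusted p = 0.0287). Rab4a, a Rab of rapid recycling from endosomes, had 9.27 and 9.71 in the controls and 9.24, 10.33 and 10.35 at 10, 30 and 60 min, and its difference of 0.86 did not pass (limma adjusted p = 0.0744). The late endosome Rab Rab7a had 9.62 at 60 min, against 9.47 and 9.58 in the controls, a difference of 0.10. For Rab9a, which acts in transport between late endosomes and the Golgi, the 60 min value of 8.05 lay between the controls (7.63 and 8.15). The other 5 probes of this group (Rab4b, Rab17, Rab21, Rab24 and Rab38) had differences between -0.43 and 0.17 at 60 min. The lowest of these, Rab4b, was detected on control 2 alone, on which it was highest. The pair of Rabs outside the 3 Rab groups, Rab28 and Rab40b, had -0.30 and -0.04 and did not pass.

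Stx17 (252853), a syntaxin of the endoplasmic reticulum that also drives fusion of autophagosomes with lysosomes, had 4.79 and 4.75 in the controls and 4.89, 5.59 and 5.77 at 10, 30 and 60 min. It was above background on the 30 and 60 min arrays only, so it met the detection rule through the rats in which it was high, and its difference of 0.99 ± 0.20 (limma adjusted p = 0.0326) stands for a level at least 1.64-fold that of the controls. The call was lost under 4 of the 8 alternative settings, with adjusted p between 0.0311 and 0.0809 over the 8, and the difference was 0.40 with the authors' processed values. The bound of 1.64-fold sets the 60 min value against, on each control array, the higher of the probe's own value and the lowest value among probes above background. Of the 9 syntaxin and SNAP probes, 2 rose, 1 fell and 6 did not pass, beside 13% higher and 11.4% lower among all probes. Stx6, Stx7, Stx8, Stx12 and Stx16, syntaxins of the Golgi and endosomes, had differences between -0.26 and 0.36 at 60 min. Snap47, a SNAP-25 relative, had 6.15 and 6.19 in the controls and 5.98, 5.87 and 5.74 at 10, 30 and 60 min, a difference of -0.43 (limma adjusted p = 0.182).

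A plasma membrane syntaxin and a muscle VAMP were lower. Stx4 (81803), the syntaxin of the basolateral membrane in epithelial cells, had 8.60 and 8.43 in the controls and 8.13, 8.08 and 7.65 at 10, 30 and 60 min, all 3 below both controls. Its 60 min level was 1.82-fold lower than the control mean (-0.87 ± 0.21, limma adjusted p = 0.0457). Vamp5 (89818), a VAMP of skeletal and heart muscle, had 7.27 and 6.96 in the controls and 6.50, 7.11 and 6.19 at 10, 30 and 60 min. The 30 min value lay between the controls, and the 10 and 60 min values lay below both. At 60 min Vamp5 was 1.90-fold lower (-0.93 ± 0.24, limma adjusted p = 0.0495), and it missed the threshold under 5 of the 8 alternative settings, with adjusted p between 0.0464 and 0.0935 over the 8. Control 1 and the 30 min rat, which had the higher Vamp5 values within their sets, were also the 2 arrays with skeletal muscle sums of 49684 and 50489. The part of the muscle, connective tissue, adipocyte, duct and myoepithelial markers in the lower values of Stx4, Vamp5 and Rab14 was not tested.

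Rab3a (25531), a vesicle Rab best known from neurons and endocrine cells, was detected on the 60 min array alone. Its values were 4.37 and 4.59 in the controls and 4.55, 4.72 and 5.34 at 10, 30 and 60 min. The fitted difference was 0.86 ± 0.22 (limma adjusted p = 0.0496), which stands for at least 1.22-fold, and the probe met the detection rule only through the array on which it was high. Under the alternatives its adjusted p ranged between 0.0436 and 0.117. Of 6 detected nerve markers, 1 was higher at 60 min and 2 were lower (S100b and Prph). The sum of the 6 was 1264 at 60 min, against 739 and 847 in the controls, of which the higher one, Cdh19, gave 860 at 60 min, against 218 and 333 in the controls. The defining nerve SNARE Snap25 was not detected on any array, and the part of nerve RNA in the Rab3a value was not tested.

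**Figure D3:**
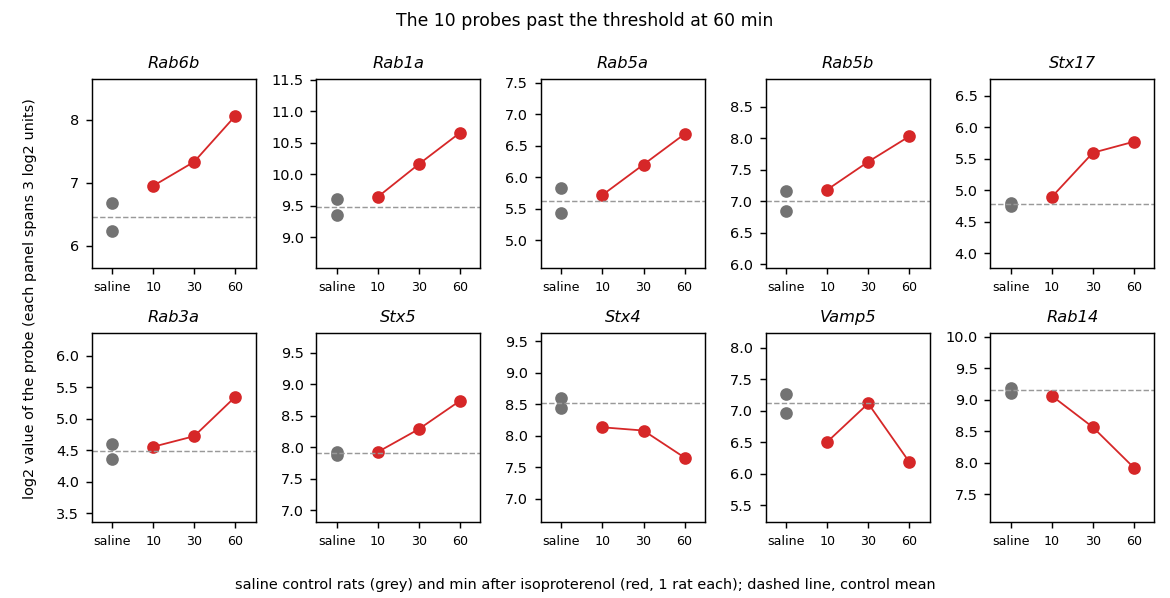
Log2 values of the 10 probes past the limma threshold at 60 min, 1 panel per gene in order of difference: grey points are the 2 saline controls, red points the isoproterenol rats at 10, 30 and 60 min (1 rat each), and the dashed line is the control mean. All panels span 3 log2 units; Rab6b reaches 8.06 at 60 min with controls at 6.23 and 6.68, and Rab14 lies at 7.92 with controls at 9.19 and 9.11.

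Beta-adrenergic receptors act through cyclic AMP and the transcription factor CREB, which binds the palindrome TGACGTCA (the cyclic AMP response element, CRE) and, more weakly, its core TGACG or CGTCA. These letters were looked for in the 250 bases upstream of the start of each gene in RefSeq's promoter table (rat build GRCr8), on both strands, the core counted also where it lies in the palindrome. The table held 64 of the 73 trafficking and SNARE genes, including the 10 called at 60 min. The palindrome was found for 2 of the 64 genes (3.12%), beside 1.7% of the 27457 promoters in the table, and for 0 of the 10 called genes. The core was found for 23 of the 64 (35.9%), beside 19.0% of all promoters, and for 4 of the 10: Rab1a, Stx5, Rab3a and Vamp5, of which 3 rose and Vamp5 fell. These shares are descriptions of letters and were not tested. The 27457 promoters were not limited to the 7627 tested genes, whereas each of the 64 genes had a detected probe. The 2 shares thus rest on unlike sets of genes. The windows around the palindromes, and around the cores of the called genes, are shown, as the complete motif and as the matches among the genes that passed. They are written 5′ to 3′ on the gene's strand with the match in capitals.
Napa, chr1:85915350-85915409, plus strand, match 59 bases upstream: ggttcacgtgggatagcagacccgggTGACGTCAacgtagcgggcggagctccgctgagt
Rab25, chr2:176304248-176304307, minus strand, match 60 bases upstream: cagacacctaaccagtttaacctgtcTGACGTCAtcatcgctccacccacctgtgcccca
Rab1a, chr14:98623513-98623569, plus strand, match 138 bases upstream: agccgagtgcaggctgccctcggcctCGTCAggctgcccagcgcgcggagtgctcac
Stx5, chr1:215066490-215066531, plus strand, match 16 bases upstream: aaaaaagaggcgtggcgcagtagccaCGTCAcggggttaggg
Rab3a, chr16:18722315-18722371, minus strand, match 72 bases upstream: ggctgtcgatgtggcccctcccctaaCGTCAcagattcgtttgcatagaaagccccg
Vamp5, chr4:105993393-105993449, minus strand, match 176 bases upstream: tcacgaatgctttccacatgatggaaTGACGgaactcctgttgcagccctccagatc

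The genes with the palindrome, Napa and Rab25, were higher in each later rat but did not pass. Napa, alpha-SNAP, had 10.19 and 10.45 in the controls and 10.46, 10.63 and 10.76 at 10, 30 and 60 min (difference at 60 min 0.44, limma adjusted p = 0.211). Rab25, a Rab of recycling to the apical membrane of epithelial cells, had 8.21 and 8.37 in the controls and 8.40, 8.59 and 8.98 at 10, 30 and 60 min (0.69, limma adjusted p = 0.0744). Rab25 passed under 3 of the 8 alternative settings, with adjusted p between 0.0383 and 0.0889 over the 8.

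Of the 22 measured probes of the exocrine granule set, Rab3a and Stx4 passed at 60 min and the other 20 did not, beside 24.4% of all probes that passed. Of the 11 Rabs of granules and the plasma membrane, 1 rose (Rab3a), 0 fell and 10 did not pass. Rab3d, the RAB3 isoform of exocrine granules, had 12.16 and 12.39 in the controls and 12.62, 12.45 and 12.02 at 10, 30 and 60 min. The 10 and 30 min rats lay above both controls and the 60 min rat below both, with a difference at 60 min of -0.25 (limma adjusted p = 0.437). Rab26, a granule Rab of parotid acinar cells, had 10.47 in each control and 10.39, 10.26 and 10.15 at 10, 30 and 60 min, a difference of -0.32 (limma adjusted p = 0.293). Rab27a and Rab27b, which recruit synaptotagmin-like effectors to granules, had 5.26 and 5.62 at 60 min, each between its controls (5.22 and 5.52 for Rab27a, 5.79 and 5.34 for Rab27b).

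Rabs that carry vesicles to the cell surface did not pass either. Rab8a, which acts from the Golgi to the plasma membrane, had 6.65 and 6.50 in the controls and 6.45, 7.14 and 7.31 at 10, 30 and 60 min, a difference at 60 min of 0.73 (limma adjusted p = 0.0650). Rab11a, of the recycling endosome, had 8.60 and 8.29 in the controls and 8.41, 8.09 and 7.85 at 10, 30 and 60 min (-0.59, limma adjusted p = 0.128). Its near copy Rab11b had 7.46 at 60 min, against 7.31 and 7.60 in the controls. Rab10 and Rab13, of basolateral and junctional traffic, had differences of 0.21 and 0.36.

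**Figure D4:**
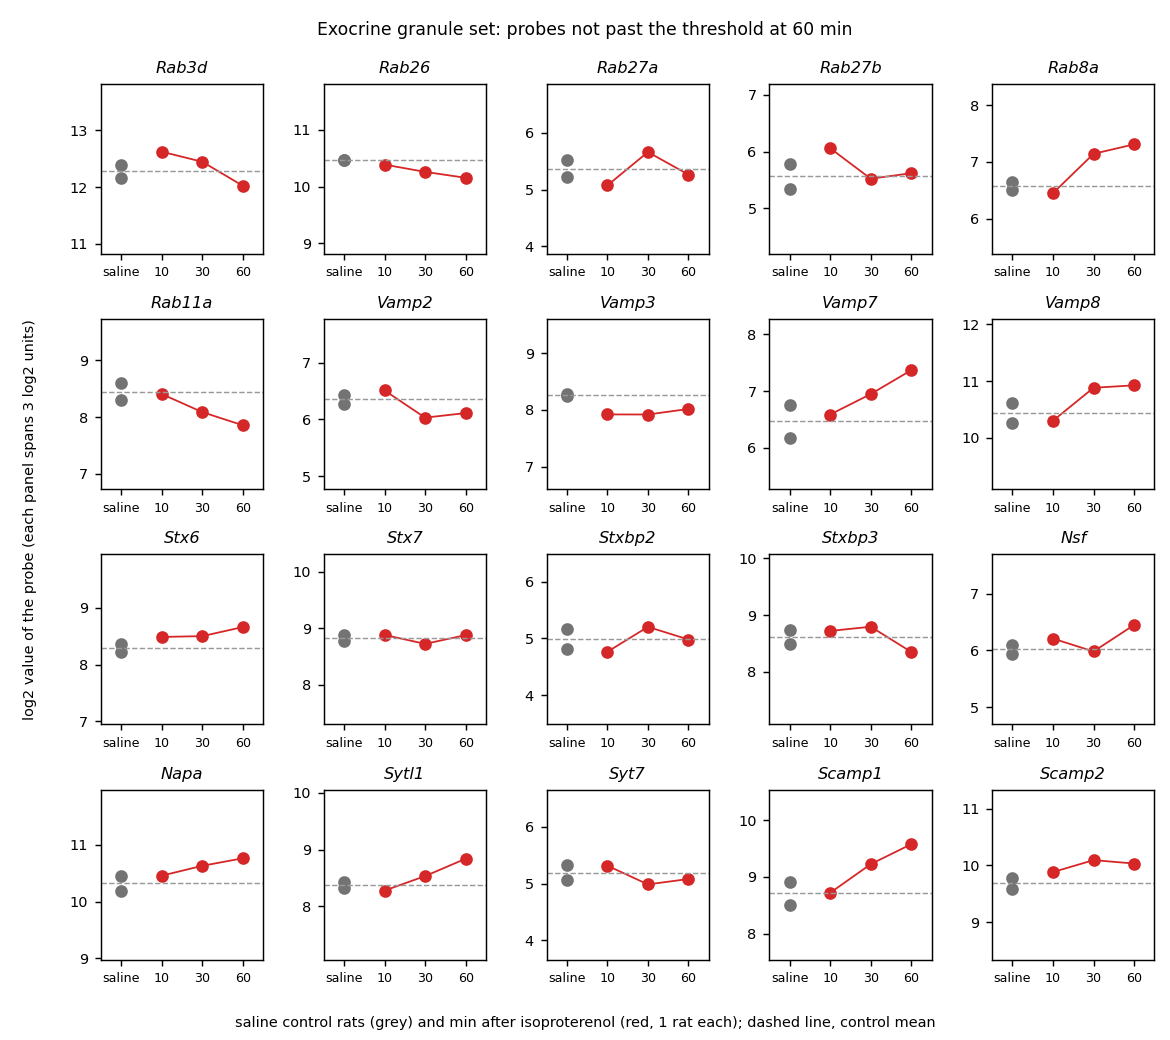
Log2 values of 20 probes of the exocrine granule set that did not pass the limma threshold at 60 min, 1 panel per gene: grey points are the 2 saline controls, red points the isoproterenol rats at 10, 30 and 60 min, and the dashed line is the control mean. All panels span 3 log2 units; Vamp7 and Scamp1 end highest above their control means (0.90 and 0.87 at 60 min).

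Among the 6 VAMPs, 0 rose, 1 fell (Vamp5) and 5 did not pass at 60 min, beside 13% higher and 11.4% lower among all probes. Vamp2, a granule SNARE, had 6.43 and 6.28 in the controls and 6.51, 6.03 and 6.11 at 10, 30 and 60 min (-0.24, limma adjusted p = 0.437). Vamp8, the other main granule VAMP of exocrine cells, had 10.27 and 10.61 in the controls and 10.30, 10.88 and 10.93 at 10, 30 and 60 min (0.49, limma adjusted p = 0.202). The 10 min value lay above both controls for Vamp2 and between them for Vamp8, and the later values lay below both controls for Vamp2 and above both for Vamp8. Vamp7, a VAMP of late endosomes and lysosomes, had 6.18 and 6.76 in the controls and 6.59, 6.95 and 7.37 at 10, 30 and 60 min. Its difference of 0.90 stood beside a gap of 0.58 between the controls and did not pass (limma adjusted p = 0.0895). Vamp3, of recycling endosomes, had 8.02 at 60 min, against 8.29 and 8.24 in the controls (-0.25), and the Golgi VAMP Vamp4 had a difference of 0.07.

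Of the syntaxins of the granule set, Stx4 fell, as given above, and Stx6 and Stx7 did not pass. Stx6, of the trans-Golgi and maturing granules, had 8.23 and 8.37 in the controls and 8.49, 8.50 and 8.66 at 10, 30 and 60 min. Each isoproterenol rat lay above both controls, with a difference at 60 min of 0.36 (limma adjusted p = 0.254). Stx7, of late endosomes, had 8.88 at 60 min, against 8.78 and 8.88 in the controls, a difference of 0.05. Stx3, the syntaxin of the apical membrane and of granules, was not detected on any array, its lowest detection p-value being 0.0270. Stx2, Snap23, Snap29, Rab37 and Sytl2 were not analysed here.

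The helpers of SNARE assembly and disassembly gave 7 probes, of which 0 passed at 60 min, beside 24.4% of all probes. Their median difference was 0.43, beside 0.02 over the 74 probes. Nsf, the ATPase that takes SNARE complexes apart, had 5.94 and 6.09 in the controls and 6.21, 5.98 and 6.45 at 10, 30 and 60 min (0.43, limma adjusted p = 0.193). Stxbp2, the Munc18 protein of epithelial apical secretion, was above background on control 1 and the 30 min array only and had 4.98 at 60 min, against 5.16 and 4.81 in the controls. Stxbp3, the Munc18 partner of syntaxin 4, had 8.35 at 60 min, against 8.74 and 8.50 in the controls, below both controls (-0.27, limma adjusted p = 0.415). Stxbp5 (tomosyn), an inhibitor of SNARE assembly, was measured by 2 detected probes, with differences of 0.39 and 0.64 at 60 min. Stxbp6 (amisyn), also an inhibitor, had 0.56. In these 3 inhibitor probes the 60 min rat lay above both controls, and none passed.

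Of the 6 synaptotagmin and synaptotagmin-like probes, 0 passed at 60 min, beside 24.4% of all probes. Sytl1, a RAB27 effector of the plasma membrane, had 8.33 and 8.43 in the controls and 8.28, 8.54 and 8.84 at 10, 30 and 60 min (0.46, limma adjusted p = 0.163). Sytl3 had 8.35 and 8.77 in the controls and 8.82, 9.18 and 8.26 at 10, 30 and 60 min, so the 30 min rat was highest and the 60 min rat lowest. Syt7, the calcium sensor of lysosome and slow granule fusion, had 5.08 at 60 min, not above background there, against 5.33 and 5.06 in the controls. Of 20 synaptotagmin and synaptotagmin-like probes in all, the other 14 were not detected, the main neuronal calcium sensors Syt1 and Syt2 among them.

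Exocyst and SCAMP probes stayed under the threshold too. The 7 exocyst probes had differences between -0.76 and 0.50 at 60 min and a median of 0.02. Exoc7 was the lowest, with 7.43 and 7.46 in the controls and 7.62, 7.30 and 6.69 at 10, 30 and 60 min. Its difference of -0.76 (limma adjusted p = 0.0557) passed under 3 of the 8 alternative settings, with adjusted p between 0.0410 and 0.0718 over the 8. Exoc1, Exoc2, Exoc3 and Exoc5 had differences between 0.01 and 0.18, while Exoc4 and Exoc8 were not detected. Of 5 SCAMPs, membrane proteins of recycling secretory carriers, 0 passed, beside 24.4% of all probes. Scamp1 had 8.50 and 8.92 in the controls and 8.72, 9.22 and 9.58 at 10, 30 and 60 min (0.87, limma adjusted p = 0.0702), and it passed under 4 of the 8 settings, with adjusted p between 0.0458 and 0.141 over the 8. Scamp2 had 9.58 and 9.79 in the controls and 9.88, 10.09 and 10.03 at 10, 30 and 60 min, each above both controls (0.35, limma adjusted p = 0.284).

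The median absolute log2 difference of the 74 probes from the control mean was 0.15 at 10 min and 0.30 at 30 min, beside 0.19 and 0.30 over all probes. At 10 min, 27 of the 74 probes lay above both controls (36.5%, beside 37.9% of all probes) and 25 below both (33.8%, beside 30.7%). The 25 include Rab4b, detected on control 2 alone, on which it was highest. None of the 74 passed there (0.0278% of all probes did), and the smallest adjusted p in limma was 0.720. At an unadjusted p under 0.05 there was 1, Rab17, beside 6.07% of all probes. Rab17, a Rab of transcytosis in epithelial cells, had 5.09 at 10 min, not above background there, against 5.78 and 5.70 in the controls. In size, 0 of the 74 differed at least 2-fold while outside both controls, beside 0.324% of all probes on the higher side and 1.86% on the lower side. The 3 lowest differences at 10 min were those of Rab17 (-0.65), Vamp5 (-0.61) and Rab38 (-0.41), and the 3 highest those of Rab27b (0.50), Rab6b (0.50) and Stxbp6 (0.40). Rab38, a Rab of lysosome-related organelles, had 5.61 in control 1, 5.12 in control 2 and 4.95, 5.87 and 5.27 at 10, 30 and 60 min, not above background at 10 min. Its higher values were those of control 1 and the 30 min rat, the 2 arrays with the high muscle sums, and the part of muscle RNA in them was not tested.

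At 30 min, 0 of the 74 passed, as for all probes (0%), with a smallest adjusted p of 0.207, and 10 had an unadjusted p under 0.05 in limma, beside 19.8% of all probes. The highest differences were those of Rab6b (0.88), Rab4a (0.84) and Stx17 (0.82), and the lowest those of Rab5c (-0.74), Rab14 (-0.59) and Stx12 (-0.56). In size, 0 probes differed at least 2-fold from the mean of the controls while outside both, beside 4.26% of all probes on the higher side and 2.48% on the lower side. Without control 2 that count was 2, and without control 1 it was 0. Stx12, a syntaxin of endosomes, had 5.94 at 30 min, against 6.49 and 6.51 in the controls, and 6.26 at 60 min.

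In time order, 10 probes stepped up, with the 10 min rat above both controls and each later rat above the one before. They were Napa, Rab1a, Rab25, Rab5b, Rab6b, Stx17, Stx5, Stx6, Stxbp6 and 1 Stxbp5 probe, and they made up 13.5% of the 74, beside 7.95% of all probes. Stx17 among them met the detection rule only through the 30 and 60 min arrays, on which it was high. A stepwise fall was seen for 5 probes (Rab14, Rab26, Rab4b, Snap47 and Stx4), 6.76% of the 74, beside 8.2% of all probes. Rab4b among them met the detection rule only through control 2, on which it was highest. Its 10 min value (4.955) lay barely below control 1 (4.960), with neither detected. Both the 30 and the 60 min rat lay above both controls, with the 60 min rat the higher, for 22 probes (29.7% of the 74, beside 24.5% of all probes), and below both, with the 60 min rat the lower, for 14 (18.9%, beside 27.4%). The 22 include Stx17 and Rab3a, and Rab3a was detected on the 60 min array alone, on which it was high. The 14 include Rab4b. At 30 min, 39 probes lay above both controls (52.7%, beside 38.8% of all probes) and 24 below both (32.4%, beside 44.1%). At 60 min, 31 probes lay above both controls (41.9% of the 74, beside 39.3% of all probes) and 27 below both (36.5%, beside 48.2%). Stx17, Rab3a and Syt4, the last detected at 30 and 60 min only, are counted among the 39 and the 31. Rab4b, detected on control 2 alone, is counted among the 24 and the 27. Between the 60 and 10 min rats, the difference leaves out the control values, but its error still comes from the spread of the 2 controls. In that test by limma, 0 of the 74 passed (0% of all probes did), and 15 had an unadjusted p under 0.05 (33.3% of all probes did). The smallest adjusted p was 0.0693 for Rab14. Taking the 3 isoproterenol rats as 1 group against the controls, 0 passed (0% of all probes), 3 had an unadjusted p under 0.05 (9.41% of all probes did), and the smallest adjusted p was 0.500. The error of that test also takes in the spread among the 10, 30 and 60 min rats.

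The remaining 41 probes were not well above background on any array. They cover the 38 genes with no detected probe, and also Rab6b and Stxbp5, which had other probes that were detected. Just inside the detection rule lay Rab4b, with a lowest detection p-value of 0.00757, and just outside it Exoc8, with 0.0215. Besides Stx3, Snap25, Syt1 and Syt2, they include the granule set genes Rab3b, Rab3c and Sytl4.

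Other genes of the pathway, outside the gene families above, came from 3 lists. Of 10 measured genes on the list of other SNAREs, 3 rose and 0 fell at 60 min, beside 13% higher and 11.4% lower among all probes. That list also held Napg (gamma-SNAP), an NSF adaptor and no SNARE. The median difference of the 10 was 0.42, beside -0.08 for all probes. It includes Gosr1 (0.57), which was detected on the 60 min array alone, on which it was highest. Bet1l, a SNARE of Golgi traffic, had 6.98 and 7.74 in the controls and 7.31, 8.60 and 9.51 at 10, 30 and 60 min, and was 4.44-fold the control mean at 60 min (2.15 ± 0.36, limma adjusted p = 0.0287). Sec22b, which pairs with syntaxin 5 between the endoplasmic reticulum and the Golgi, was 2.09-fold the control mean (1.06 ± 0.23, limma adjusted p = 0.0346), and its relative Sec22a 1.93-fold (0.95 ± 0.22, limma adjusted p = 0.0400).

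Of 23 Rab effectors and regulators, 1 rose and 6 fell, beside 13% higher and 11.4% lower among all probes, with a median difference of -0.22. Mlph, which links RAB27A to myosin Va on melanosomes, had 9.82 and 9.77 in the controls and 9.93, 9.42 and 7.96 at 10, 30 and 60 min, and was 3.56-fold lower at 60 min (-1.83 ± 0.20, limma adjusted p = 0.0281). Myrip, which links RAB27 to other myosins on granules, had 4.96 and 5.40 in the controls and 5.53, 5.97 and 6.64 at 10, 30 and 60 min, and was 2.75-fold the control mean at 60 min (1.46 ± 0.27, limma adjusted p = 0.0294). The others lower were the RAB5 effector Rabep1 (-1.35), the RAB5 exchange factor Rabgef1 (-0.86), Rabif (-1.30), Rabgap1 (-0.83) and Gdi2 (-0.90), the last a chaperone that extracts Rabs from membranes. Of 15 genes of priming, tethering and calcium sensing, 0 rose and 1 fell, beside the same 13% higher and 11.4% lower. That gene, the vesicle glycoprotein gene Sv2b, had 14.61 and 14.39 in the controls and 14.57, 13.67 and 12.89 at 10, 30 and 60 min, and was 3.04-fold lower at 60 min (-1.61 ± 0.22, limma adjusted p = 0.0281). Txlnb, a syntaxin-binding protein of muscle, had 7.47 in control 1, 4.33 in control 2 and 4.79, 7.11 and 4.61 at 10, 30 and 60 min, high on the 2 arrays with the high muscle sums, and did not pass (-1.28, limma adjusted p = 0.483).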

How the data were processed

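Per the labels' protocols, total RNA was amplified and labelled with biotin. The authors deposited, for 22517 probes on 5 arrays, a linear-scale intensity with its detection p-value, and a second table of processed values on a log2-like scale by an unstated transform (the software is not given in the sources used here). These deposited intensities had near-identical quantiles on all arrays (sorted values ranged by a median of 0.133%). Gene symbols came from the platform annotation. Intensities were background-corrected (normexp with detection p-values, offset 16), quantile normalized and log2-transformed with limma 3.58.1 in R 4.3.3. The offset shrinks differences of dim probes. Probes with a detection p-value under 0.01 on at least 1 array (10793) were fitted with lmFit and eBayes, 1 mean per group. The residual had 1 degree of freedom, from the controls, and eBayes added 3.88 around a prior SD of 0.186, so each lone rat was assumed to vary as the controls did. A model with 2 groups had 3 residual degrees of freedom. P-values were two-sided and adjusted over all probes by Benjamini-Hochberg at 0.05, and the scripts were tested on simulated data. The small number of arrays limits the precision.

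The gene families, the lists of other genes and of cell type markers, and the tests were chosen with earlier results of these data known, and the role groups and the motif search after the values were seen. Named by rule were probes past the threshold, the 3 highest and 3 lowest at 10 and 30 min, a granule set whatever its values, and the 2 largest changes of each other list at 60 min; Rabs, exocyst and other members named beyond this, and the other list genes, were chosen after their values were seen. Alternatives were an offset of 50, no background correction, the authors' processed values, no filter or detection on 2 arrays, median scaling, a robust or trended prior, and leaving out an array.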

Additional observations from a re-analysis of the deposited data

How the results depend on the processing

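The 60 min count of 10, beside 2634 of all 10793 probes, was 0 with no filter on dim probes, where more probes enter both the fit and the adjustment. There 0 of all 22517 probes passed. The count was between 8 and 12 under the other 7 settings of limma and without the 30 min array, an alternative added after the data were seen. Under these, between 2503 and 2981 of all probes passed. The counts at 10 and 30 min, and for all isoproterenol rats against the controls, were 0 under every setting run, beside at most 13 of all probes. Between 60 and 10 min, 1 of the 74 probes passed with an offset of 50 (Rab14, adjusted p 0.0499 in limma), beside 772 of all 10793. With the authors' processed values 2 passed (Rab14, 0.0476, and Rab1a, 0.0493, in limma), beside 853 of all 10793. The report had 0, also among all probes, and the cause was not tested. With 1 control left out, also added after the data were seen, the probes at least 2-fold from control and outside the controls numbered between 0 and 2 at 30 min and between 5 and 10 at 60 min. Under the settings that kept both controls, some differences near 0 changed sign. That of Stx16 at 60 min went to -0.00057 with median scaling and -0.0029 without background correction. It was -0.0017 with the processed values of the authors or an offset of 50. That of Stxbp2 went to 0.00049 with the processed values of the authors. With median scaling, that of Rab11b went to 0.0065 and that of Vamp5 at 30 min to 0.0022. With 1 control left out, sign changes of probes that had not passed were not counted. They can be larger where a value lies between the controls, as for Rab9a at 60 min (8.05, controls 7.63 and 8.15). Besides the loss of all 10 calls without the filter, Rab3a and Stx17 were lost with no background correction, the processed values of the authors or an offset of 50, Rab5a with no background correction, and Vamp5 with no background correction, detection on 2 arrays, a trended prior or the processed values of the authors; Rab3a was not tested with detection on 2 arrays. The medians of the 74 probes moved by less than the median difference between the controls (0.09, control 2 minus control 1). The largest move was at 60 min without control 2, from 0.015 to 0.076. Leaving out a control leaves no residual for a single time, so those values carry no test. No paired analysis was possible because each isoproterenol time has 1 rat and shares only replicate number 1 with the controls. Probes near background, among them Rab3a and Stx17, carry only bounds.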
